A study of Mus musculus with 70 samples.

Results

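Wild-type ILC2P and ILCP libraries were compared, 11 of the 70 samples of the series: all 8 libraries labelled wild-type ILC2P and all 3 labelled wild-type ILCP, chosen by genotype and cell type in the labels. ILC2P stands for progenitors of the group 2 branch of innate lymphoid cells. No label says how ILCP were gated. The series design names a Sca1+ subset of common innate lymphoid progenitors (CILP) that no cell type label carries, and Sca1 is the protein made from Ly6a. Each library held 100 cells sorted from mouse bone marrow, with no deletion and no treatment named for either group. The statistical fit also held other wild-type libraries and Tcf7 knockout and Id2 knockout libraries, which shared in its filter, scaling, batch term and spread. Ages and the number of animals are not given in the sources used here, so p-values measure the spread between libraries, which may be technical.

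Innate lymphoid cells are lymphocytes without rearranged antigen receptors. Their group 2 branch depends on the transcription factor GATA-3, answers the alarmin interleukin-33 through the receptor ST2 (from Il1rl1), and makes type 2 cytokines when activated. Earlier progenitors are known for TCF-1 (from Tcf7) and PLZF (from Zbtb16), which mark cells that can still give several branches.

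The libraries were made by CEL-seq, a 3′-biased method for polyadenylated RNA. Library totals ran from 19322 to 80873 counts in ILC2P (median 66812.5) and were 283547, 81093 and 110341 in ILCP replicates 1, 2 and 3, so every ILC2P total lay below every ILCP total. Depth and population cannot be told apart. Of the genes tested, 46.2% to 77.6% had no count in a given ILC2P library, against 26.9%, 54.5% and 36.7% in the ILCP libraries. One count was worth 11.9 to 34.5 CPM in ILC2P and 4.94, 12.1 and 8.41 CPM in ILCP. Here CPM are counts per 1e+06 of a library's total over the tested genes, after that total was scaled by TMM. In a bulk library, fewer cells of a type and less RNA per cell cannot be told apart. Batch 1 held ILCP replicate 3 and ILC2P replicates 6 to 8, and batch 2 the rest.

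ILCP replicate 1 stood apart from the other ILCP libraries. Markers of erythroid cells and megakaryocytes made up 2.24% of its counts, against 0% and 0.000906% in replicates 2 and 3 and 0.00172% to 0.264% in ILC2P. Genes of group 1 innate lymphoid and natural killer cells made up 0.725%, against 0.0123% and 0.0471% in the other ILCP libraries, 0.00569% to 0.114% in ILC2P and 0.403% to 0.746% in the 7 CILP libraries. The 3 group 2 markers Il1rl1, Ly6a and Klrg1 summed to 0.0356% there, against 0.256% and 0.271% in replicates 2 and 3, 0.16% to 0.393% in ILC2P and at most 0.00253% in CILP. Values without this library are given for many, not all, of the genes whose call or fold depends on it. Of the 53 genes called lower in ILC2P, 47 lost the call without it.

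**Figure D1:**
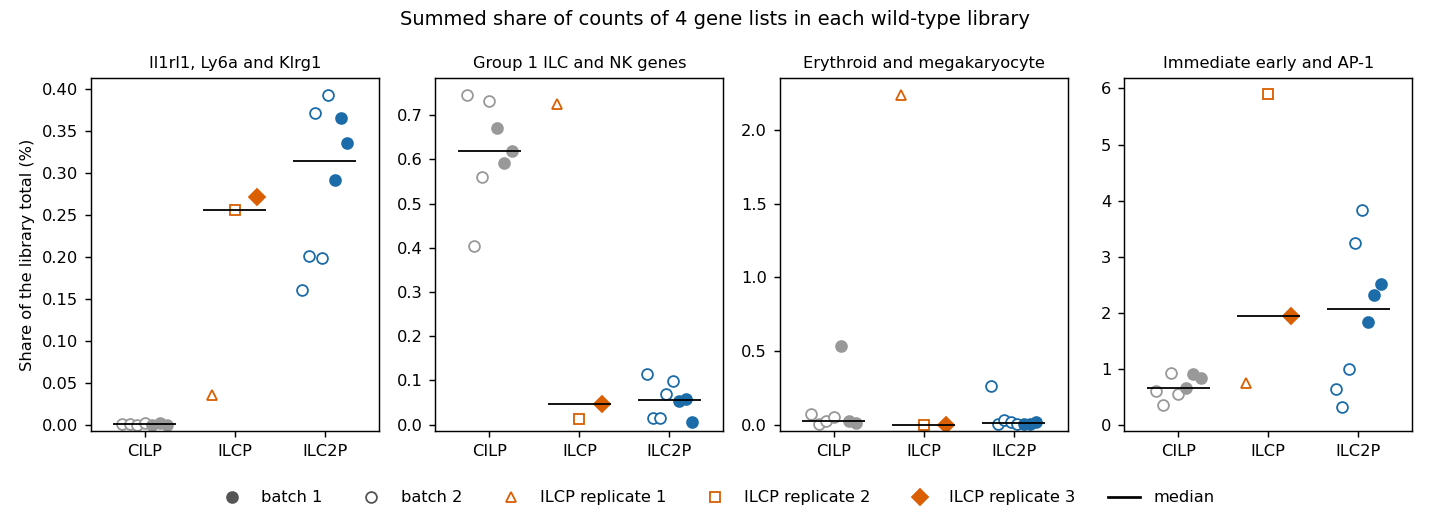
Share of the library total (%) taken by 4 gene lists, in 7 CILP, 3 ILCP and 8 ILC2P wild-type libraries; each point is a library, filled for batch 1 and open for batch 2, and lines are medians. ILCP replicate 1 (triangle) lies among the CILP libraries for group 1 genes (0.725%) and above all others for erythroid genes (2.24%), and ILCP replicate 2 (square) has the highest immediate early share (5.9%).

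The markers of the group 2 branch were present in both populations, their values overlapped, and no difference between ILCP and ILC2P passed the test. Il1rl1 (chr1:40404864-40465418 on GRCm38.p6), which encodes the interleukin-33 receptor, was at 296, 1708 and 1304 CPM in ILCP replicates 1 to 3 and between 267 and 1707 CPM (median 988) in ILC2P. The groups overlapped, with ILCP replicate 1 near the lowest ILC2P library. Its log2 fold change (ILC2P minus ILCP) was -0.24 (SE 0.71, 95% interval -1.65 to 1.17, edgeR adjusted p = 1.0). Each SE and interval of a log2 fold change was worked back from the test statistic and is approximate. Ly6a (chr15:74994877-74998031), which encodes Sca1, was at 202, 727 and 959 CPM in ILCP and at 302 to 1707 CPM (median 1147) in ILC2P, a log2 fold change of 0.71 (interval -0.98 to 2.41, edgeR adjusted p = 0.827). Klrg1 (chr6:122270596-122282833), an inhibitory receptor of mature group 2 cells, was at 0, 84.8 and 252 CPM in ILCP and at 0 to 1897 CPM (median 154) in ILC2P, a log2 fold change of 1.34 (interval -1.63 to 4.30, edgeR adjusted p = 0.802). These values moved with single ILCP libraries. Without replicates 1, 2 and 3 in turn, the log2 fold change of Il1rl1 was -0.67, 0.64 and -0.44, that of Ly6a 0.30, 0.90 and 1.05, and that of Klrg1 0.38, 0.69 and 3.75, and none passed the test. The direction of Klrg1 differed between batches, at -1.69 in batch 1 and 3.55 in batch 2 on the log2(CPM + 1) scale. Exact 2-sided permutation tests within batches, with 84 relabellings and a smallest possible p of 0.0119, gave p = 0.917 for Il1rl1, 0.131 for Ly6a and 0.548 for Klrg1 (0.917, 0.393 and 0.822 after adjustment over 3 genes). In CILP the highest values were 6.89 CPM for Il1rl1, 21.0 for Ly6a and 1.9 for Klrg1.

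**Figure D2:**
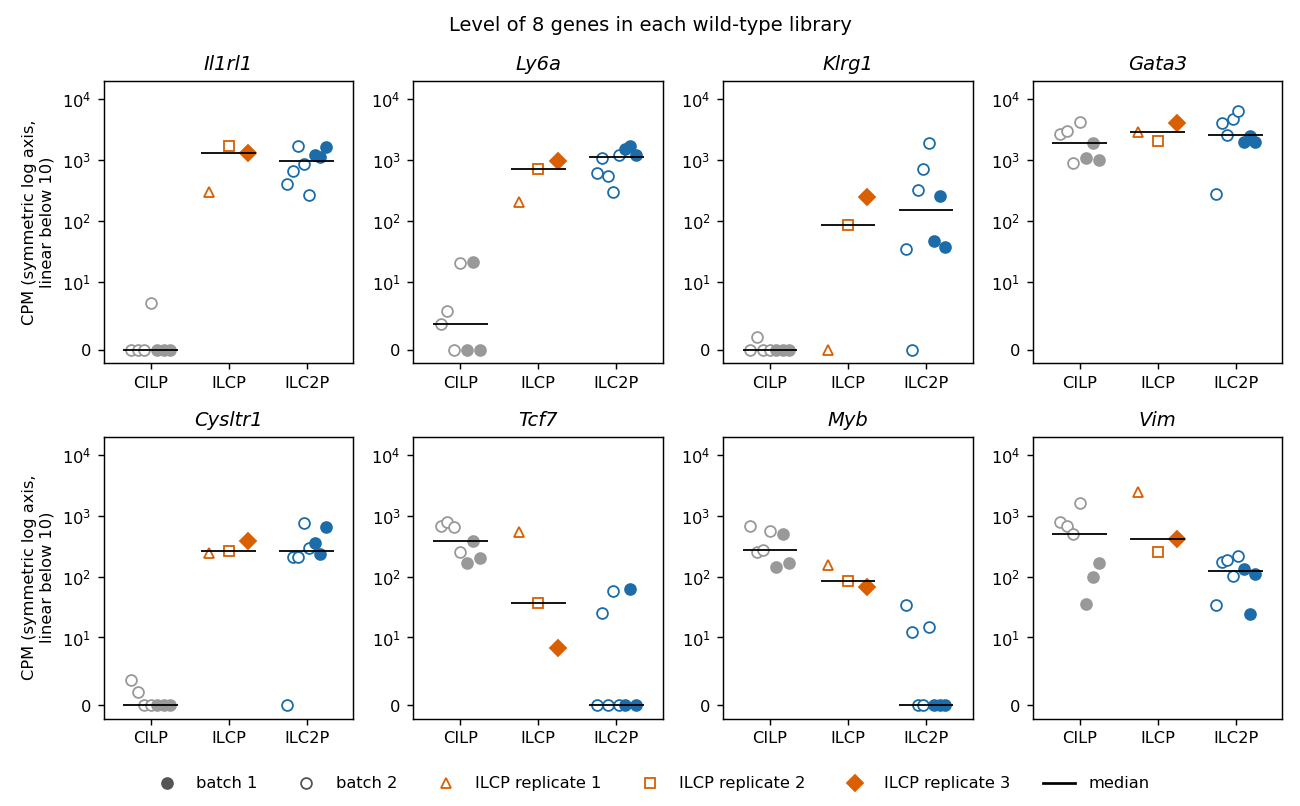
CPM of 8 genes in each wild-type CILP, ILCP and ILC2P library, on a symmetric log axis that is linear below 10; points are libraries, filled for batch 1 and open for batch 2, and lines are medians. Il1rl1 and Ly6a are above 200 CPM in each ILCP and ILC2P library and at most 21.0 CPM in CILP, while all 3 ILCP libraries lie above all 8 ILC2P libraries for Myb and Vim.

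Windows upstream of 2 Il1rl1 starts are shown because this marker was present in both populations, and that of Myb because its transcript was lower in ILC2P. They are the 250 bases before each of these starts in RefSeq on GRCm38.p6, with matches to the GATA motif AGATAA (either strand) in capitals. The Il1rl1 gene span begins at chr1:40404864, upstream of both windows, and no window was at hand for a start there. The first Il1rl1 window is chr1:40429320-40429569, the second chr1:40439379-40439628, both on the plus strand, and the Myb window is chr10:21160985-21161234 on the minus strand.
Il1rl1, first start: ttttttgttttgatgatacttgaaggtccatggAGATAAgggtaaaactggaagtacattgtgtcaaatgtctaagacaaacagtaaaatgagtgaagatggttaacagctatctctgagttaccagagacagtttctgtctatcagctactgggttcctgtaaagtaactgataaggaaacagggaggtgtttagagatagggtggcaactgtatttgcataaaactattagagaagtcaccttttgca
Il1rl1, second start: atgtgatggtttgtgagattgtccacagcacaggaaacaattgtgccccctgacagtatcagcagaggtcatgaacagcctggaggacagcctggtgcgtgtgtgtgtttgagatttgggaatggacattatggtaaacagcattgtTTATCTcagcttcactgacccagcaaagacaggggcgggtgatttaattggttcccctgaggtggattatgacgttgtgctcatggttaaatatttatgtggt
Myb: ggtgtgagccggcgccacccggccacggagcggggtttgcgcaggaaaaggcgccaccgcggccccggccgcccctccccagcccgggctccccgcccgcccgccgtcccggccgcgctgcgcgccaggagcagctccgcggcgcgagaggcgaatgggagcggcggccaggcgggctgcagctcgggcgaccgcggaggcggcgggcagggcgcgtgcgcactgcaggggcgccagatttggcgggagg
Each Il1rl1 window holds 1 match to AGATAA and the Myb window 0, and none holds the TCF and LEF motif CTTTGA. Other forms of either motif were not searched. Over all 32851 windows of this length, 9.99% hold the GATA motif and 13.8% the TCF and LEF motif. A match is a description of these letters, and 3′ tags do not tell which start was used.

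None of the 20 tested genes on the list of group 2 effector and surface genes, of 30 written, was called in either direction, with a median log2 fold change of -0.04 against -0.21 over all genes. Il2ra, the interleukin-2 receptor alpha chain, was at 326, 460 and 202 CPM in ILCP and at 138 to 829 CPM (median 344) in ILC2P. Cysltr1, a receptor for cysteinyl leukotrienes, was at 242, 267 and 387 CPM in ILCP and at 0 to 748 CPM (median 266) in ILC2P. In ILCP replicate 1, Il2ra lay between the other ILCP libraries, and Cysltr1 lay below both. Icos, a costimulatory receptor, was at 1007, 1563 and 1010 CPM in ILCP and at 175 to 1166 CPM (median 702) in ILC2P, a log2 fold change of -0.95 (interval -2.54 to 0.64, edgeR adjusted p = 0.694). Il17rb, a receptor for interleukin-25, was at 1358, 206 and 732 CPM in ILCP and at 80.0 to 547 CPM (median 251) in ILC2P, a log2 fold change of -1.54 (interval -3.24 to 0.17, edgeR adjusted p = 0.463) and of -0.57 without ILCP replicate 1. Hpgds, the hematopoietic prostaglandin D synthase, had no count in ILCP and reached 593, 107, 655 and 12.4 CPM in ILC2P replicates 5 to 8, with 0 in the other 4. It did not pass the test (edgeR adjusted p = 0.0908).

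Against CILP, the fit with the same libraries called 121 genes higher in ILC2P (1.1% of those tested) and 34 higher in ILCP (0.31%). Il1rl1 was higher in ILC2P by a log2 fold change of 9.08 (edgeR adjusted p = 7.30e-13) and in ILCP by 9.32 (5.77e-12). For Ly6a the values were 6.86 (9.70e-08) and 6.15 (1.39e-05), for Klrg1 8.13 (4.34e-06) and 6.79 (0.00364), for Il2ra 7.33 (2.98e-07) and 7.17 (1.10e-05), and for Cysltr1 7.38 (4.71e-06) and 7.18 (0.00012). These comparisons share the CILP libraries and were not refitted without ILCP replicate 1. The 7 CILP libraries together held 1 count for Il1rl1, 10 for Ly6a, 1 for Klrg1 and 2 for Cysltr1. The sizes of these folds therefore rest on few CILP counts and are uncertain.

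Among 25 tested regulators of innate lymphoid development, 1 was called lower in ILC2P and 0 higher (median log2 fold change -0.32). Gata3 was at 2859, 2060 and 4080 CPM in ILCP and at 276 to 6387 CPM (median 2588) in ILC2P, a log2 fold change of -0.10 (interval -2.22 to 2.02, edgeR adjusted p = 1.0). Both T cells and group 2 cells use Bcl11b, which was at 558, 158 and 724 CPM against a median of 467, and Ets1 at 775, 666 and 841 CPM against a median of 438. Tcf7 was at 548, 36.3 and 8.41 CPM in ILCP, and in ILC2P it was at 25.1, 57.5 and 61.8 CPM in 3 libraries and at 0 in 5. Its log2 fold change was -2.94 (interval -4.99 to -0.88, edgeR adjusted p = 0.182) and -0.06 without ILCP replicate 1. Zbtb16 was at 104, 0 and 25.2 CPM in ILCP and at 0 to 34.5 CPM (median 0) in ILC2P. Its log2 fold change was -2.70 (interval -5.18 to -0.22, edgeR adjusted p = 0.36) and -1.05 without ILCP replicate 1. Tox, a factor of early innate lymphoid progenitors, was at 153, 84.8 and 58.9 CPM in ILCP and at 0 to 136 CPM (median 0) in ILC2P, a log2 fold change of -1.69 (edgeR adjusted p = 0.465) and of -1.10 without that library. CILP medians were 385 CPM for Tcf7, 325 for Zbtb16 and 621 for Tox. Rora, a nuclear receptor needed by group 2 cells, was at 24.7, 12.1 and 151 CPM in ILCP and had counts in 1 ILC2P library (47.7 CPM). Its log2 fold change was -3.04 (interval -5.76 to -0.33, edgeR adjusted p = 0.346). Id2, an inhibitor of E proteins, was at 79.0, 12.1 and 1228 CPM in ILCP, at 0 in ILC2P replicates 1 to 3 and at 769 to 1002 CPM in replicates 4 to 8. The called member, Id3, a related inhibitor, was at 909 CPM in ILCP replicate 1 and at 0 in the other 10 libraries. The remaining 16 members gave edgeR adjusted p-values from 0.35 to 1.0. Among them was Tox2, which had no count in any of the 11 compared libraries.

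**Figure D3:**
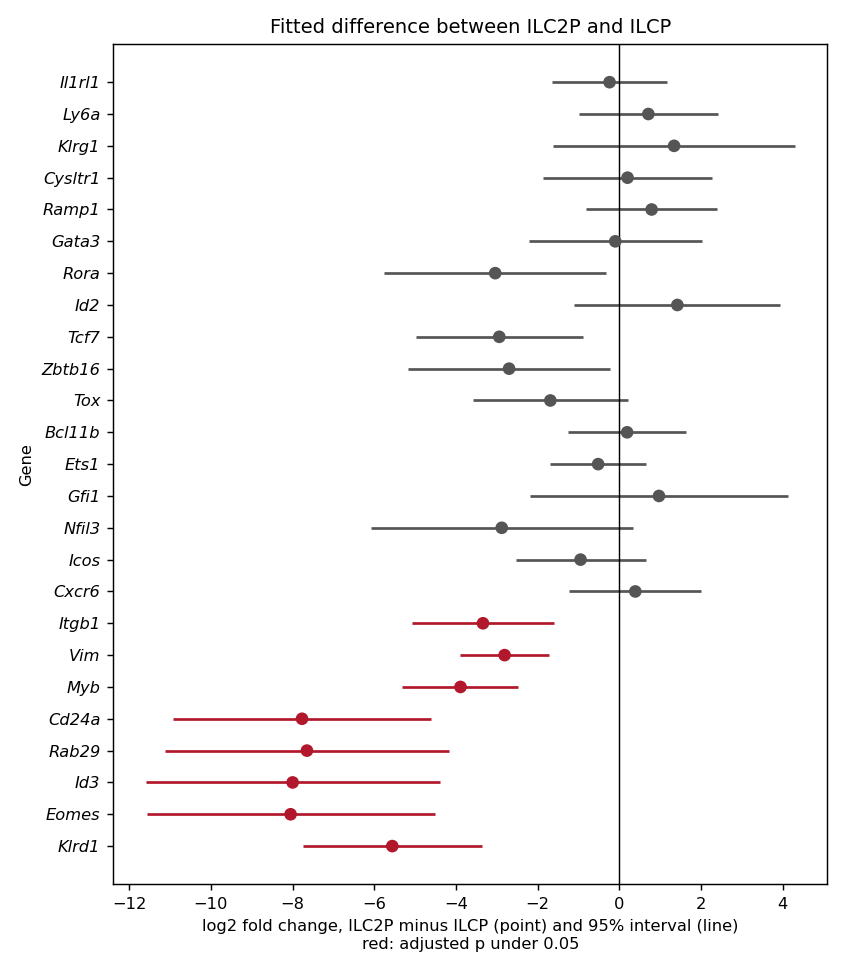
Fitted log2 fold change, ILC2P minus ILCP (points), with 95% intervals (lines), for 25 genes; red marks an edgeR adjusted p under 0.05. Intervals were worked back from the test statistic. For Cd24a, Rab29, Id3 and Eomes, without any ILC2P count, the data do not fix the lower end. Intervals of the markers Il1rl1 (-1.65 to 1.17), Ly6a and Klrg1 span 0, and those of Itgb1, Vim and Myb lie below 0. Those of Rora (-5.76 to -0.33), Tcf7 (-4.99 to -0.88) and Zbtb16 (-5.18 to -0.22) also lie below 0, but these genes did not pass the test.

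Over all 10972 genes tested, 53 were lower in ILC2P (0.483%) and 0 were higher (0%) at an edgeR adjusted p under 0.05. At an unadjusted p under 0.05 there were 1361 genes, 1062 lower and 299 higher, and DESeq2 called 35 lower and 15 higher. Of the 53 genes, 21 had no count in any ILC2P library and 10 had 1 to 3 counts. In ILCP, 11 of the 53 had counts in only 1 library. A filter on the 11 compared libraries left 4 of the 53 to test. All 3 ILCP libraries lay above all 8 ILC2P libraries for 15 of them, against 109 of all tested genes (0.993%), and the reverse order held for 2 tested genes (0.0182%), neither of them called. ILCP replicate 1 was the highest ILCP library for 38 of the 53 genes, and 23 had over 75% of their summed ILCP CPM in it. Without that library 7 genes were called, 6 of them among the 53; without ILCP replicate 2 there were 72 (42 shared), and without replicate 3 there were 106 (46 shared).

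**Figure D4:**
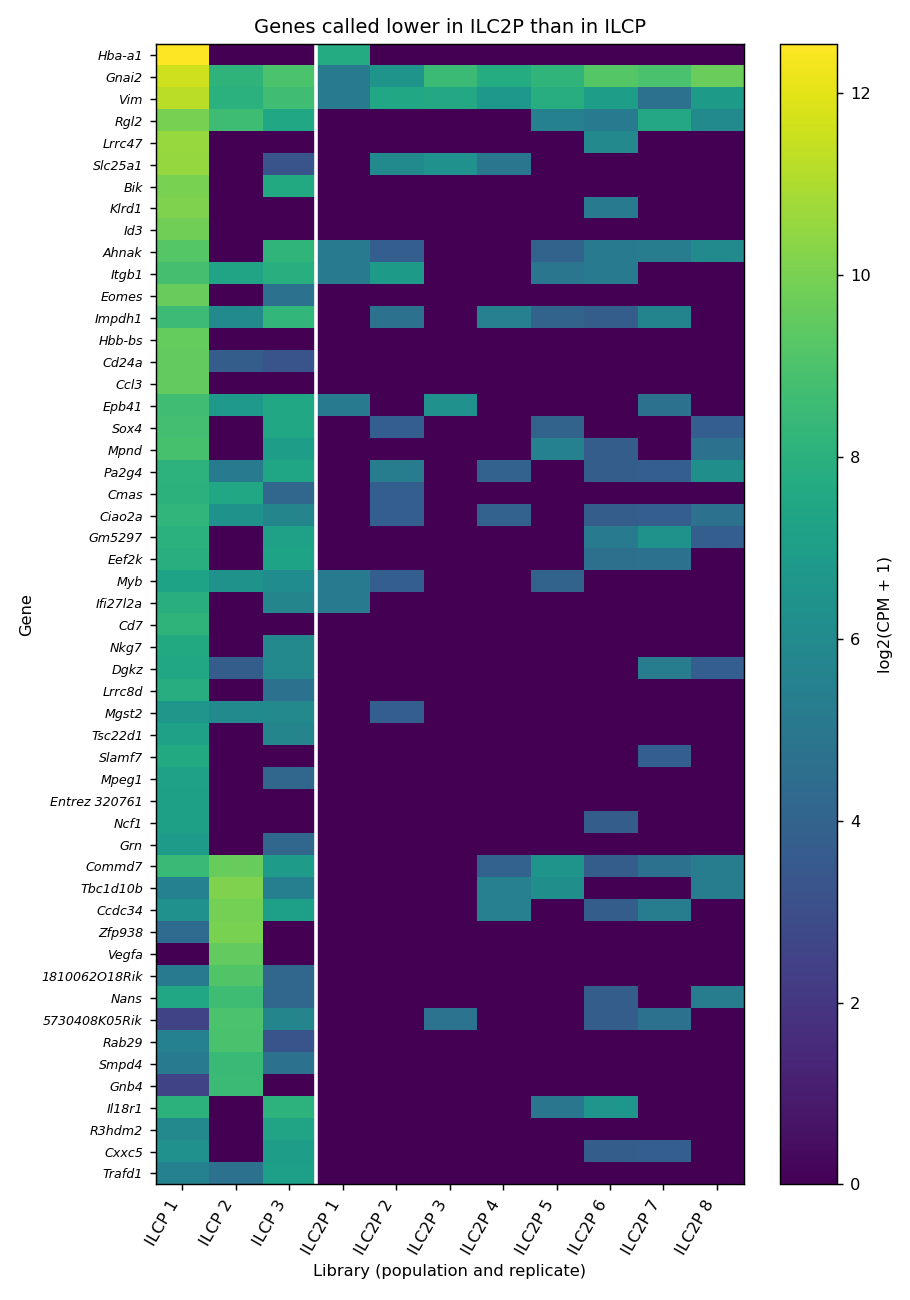
log2(CPM + 1) of 52 of the 53 genes called lower in ILC2P, by library, sorted by the ILCP library in which each is highest. Among those drawn, ILCP replicate 1 is highest for 37 genes, replicate 2 for 11 and replicate 3 for 4, and most genes have no count in most ILC2P libraries.

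The genes with counts in all 3 ILCP libraries numbered 22 of 53. Myb (chr10:21124930-21160984), which encodes a transcription factor of early blood progenitors, was at 153, 84.8 and 67.3 CPM in ILCP, and in ILC2P at 34.5, 12.5 and 14.8 CPM in replicates 1, 2 and 5 and at 0 in the other 5. These were 3 counts in all, which gave a pooled ratio of ILCP to ILC2P of 20.1 (counting interval 6.45 to 101), or 13.1 (3.71 to 70.7) without ILCP replicate 1. Its log2 fold change was -3.89 (SE 0.72, edgeR adjusted p = 0.00204). Myb was the only named gene called in each of the 11 fits that left out 1 library, with a largest adjusted p of 0.0408 in edgeR, and it was at 142 to 669 CPM (median 270) in CILP. It was 1 of 22 tested stem and multipotent progenitor genes called lower (median log2 fold change -0.93, and 0.06 without ILCP replicate 1). Vim (chr2:13574311-13582826), which encodes the intermediate filament vimentin, was at 2424, 254 and 412 CPM in ILCP and at 24.7 to 222 CPM (median 121) in ILC2P, with no overlap. Its log2 fold change was -2.81 (SE 0.55, edgeR adjusted p = 0.00263), and -1.87 (adjusted p = 0.309 in edgeR) without ILCP replicate 1. Rab29, a small GTPase of vesicle traffic, was at 44.4, 485 and 8.41 CPM in ILCP and had no count in ILC2P (edgeR adjusted p = 0.017). Its mean ILCP CPM was 31.6 times a floor, the level of 3 counts over all ILC2P libraries. Such multiples take the ILCP mean as exact, so they are not bounds on the fold. The multiple was 43.4 without ILCP replicate 1 (edgeR adjusted p = 0.0408) and 4.66 without replicate 2 (edgeR adjusted p = 0.22). Cd24a, a surface glycoprotein of immature lymphoid cells, was at 726, 12.1 and 8.41 CPM in ILCP and at 0 in ILC2P. Its ILCP mean was 43.8 times the floor (edgeR adjusted p = 0.00396). Replicates 2 and 3 held 2 counts together, so no multiple is given without replicate 1 (edgeR adjusted p = 0.622). It was the 1 called gene of 18 tested on the B lineage list.

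Homing and adhesion genes had 2 of 29 tested members called lower and 0 higher (median log2 fold change -0.98, and -0.28 without ILCP replicate 1). Itgb1, the integrin beta 1 chain, was at 459, 158 and 236 CPM in ILCP and at 0 to 113 CPM (median 14.8) in ILC2P, with no overlap and a log2 fold change of -3.34 (edgeR adjusted p = 0.047). Without ILCP replicate 1 it was -2.76 and did not pass (edgeR adjusted p = 0.388). Itga4, the alpha 4 chain that pairs with it, was named after its values were seen. It was at 1580, 1490 and 1422 CPM in ILCP and at 119 to 1001 CPM (median 610) in ILC2P, also without overlap, and did not pass the test (log2 fold change -1.26, edgeR adjusted p = 0.262). Cxcr6, a chemokine receptor, was at 439, 509 and 488 CPM against 238 to 2320 CPM (median 458), and its highest value in CILP was 112 CPM.

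Genes of group 1 innate lymphoid and natural killer cells were called lower in ILC2P for 5 of 23 tested members (Eomes, Klrd1, Nkg7, Ccl3 and Il18r1) and higher for 0. The list median was -2.95, and -0.04 without ILCP replicate 1. Of the 26 genes listed, 7 had no count in the 11 compared libraries, so some tested members had none. Eomes, a T-box factor of natural killer cells, was at 790, 0 and 25.2 CPM in ILCP and at 0 in ILC2P. Klrd1, the CD94 receptor chain, was at 1091, 0 and 0 CPM in ILCP and at 35.8 CPM in 1 ILC2P library (log2 fold change -5.56). Without replicate 1 the ILCP libraries held no count, and no fold is given. Nkg7, a cytotoxic granule protein, was at 198, 0 and 58.9 CPM in ILCP and at 0 in ILC2P. Il18r1, a receptor chain for interleukin-18 and also the 1 called gene of 33 tested cytokine receptors, was at 262, 0 and 278 CPM in ILCP and at 0 to 95.4 CPM (median 0) in ILC2P, with a CILP median of 712 CPM. ILCP replicate 2 was at 0 for these 4 genes, and the edgeR adjusted p of each was over 0.05 without ILCP replicate 1.

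Among markers of other cells, those of erythroid cells and megakaryocytes also moved with ILCP replicate 1. Hba-a1 and Hbb-bs, which encode hemoglobin chains, were the 2 called members of 16 tested erythroid and megakaryocyte genes. Hba-a1 was at 5940 CPM in ILCP replicate 1, at 207 CPM in ILC2P replicate 1 and at 0 in the other 9 libraries. Hbb-bs was at 760 CPM in ILCP replicate 1 and at 0 elsewhere. The part of such RNA in the other calls was not tested. Markers of myeloid cells, of granulocytes and mast cells, of dendritic cells, of mature B and T cells and of sex-linked genes had 0 called members. In the 11 compared libraries, 7 of 18 myeloid and 5 of 13 dendritic markers had no count. The same held for 11 of 16 granulocyte and mast cell markers. Summed mature T markers made up 0.0762%, 0.131% and 0.0236% of ILCP counts and 0% to 0.108% of ILC2P counts, and summed myeloid markers 0.00634% to 0.0136% and 0% to 0.549%.

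Immediate early and AP-1 genes had 0 of 28 tested members called and split both groups. They made up 5.9% of counts in ILCP replicate 2 and 0.749% and 1.94% in replicates 1 and 3, against 0.314% to 3.83% in ILC2P. Zfp36, an RNA-binding protein that destabilizes cytokine transcripts, was at 775, 14855 and 362 CPM in ILCP, and at 4345 and 8047 CPM in ILC2P replicates 4 and 5 against 87.7 to 1093 CPM in the other 6. Tnfaip3, an inhibitor of NF-kB, was at 242, 10602 and 185 CPM in ILCP, and at 6834 and 6980 CPM in ILC2P replicates 4 and 5 against 24.7 to 539 CPM in the rest. The libraries high for both genes were ILCP replicate 2 and ILC2P replicates 4 and 5, all of batch 2. The 23 tested NF-kB and interleukin-1 signalling genes made up 2.29% of counts in ILCP replicate 2 and 0.22% to 1.59% in ILC2P, and 0 were called.

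Of the remaining lists, T lineage genes had 1 of 24 tested members called lower, Cd7 (281 CPM in ILCP replicate 1 and 0 in the other 10 libraries). The S100, galectin and annexin list, which also held Vim, had 2 of 18, the other being Ahnak (602, 0 and 294 CPM against 0 to 62.0 CPM). Interferon-stimulated genes had 1 of 27, Ifi27l2a (237, 0 and 50.5 CPM against 1 count in ILC2P). Without ILCP replicate 1, Ahnak (log2 fold change -1.96, edgeR adjusted p = 0.645) and Ifi27l2a (-3.85, edgeR adjusted p = 0.434) did not pass. Cd7 then had no ILCP count left. No member was called among lipid mediator and neuropeptide genes (16 tested), group 3 genes (17), costimulatory and inhibitory receptors (15), cell cycle (49), heat shock (16), JAK, STAT and SOCS genes (18), Bcl2 family (13), glycolysis (19), lipid metabolism (19), MHC (16), Notch (13), Gimap (8), ribosomal protein (84), mitochondrial genome (12), oxidative phosphorylation (74) and proteasome genes (37). Their median log2 fold changes lay between -1.10 (MHC, and 0.78 without ILCP replicate 1) and 0.58 (mitochondrial genome, 12 of 12 with a positive sign). Mitochondrial transcripts made up 0.458% to 5.81% of ILC2P counts and 0.715%, 1.43% and 0.672% of ILCP counts.

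Among the other called genes, Sox4, a transcription factor of lymphoid progenitors, was at 435, 0 and 185 CPM in ILCP and at 0 to 14.8 CPM (median 0) in ILC2P, 3 counts in all, with a CILP median of 662 CPM. The pooled ratio of ILCP to ILC2P was 48.0 (counting interval 16.0 to 236), and the log2 fold change was -5.08 (SE 0.97, edgeR adjusted p = 0.00339). Without ILCP replicate 1 the ratio was 19.2 (5.78 to 100) and the log2 fold change -3.69 (edgeR adjusted p = 0.182). Bik, which promotes cell death, was at 1017, 0 and 193 CPM in ILCP and at 0 in ILC2P. Its ILCP mean was 71.1 times the floor of 3 ILC2P counts (edgeR adjusted p = 0.00263), or 17.0 times without replicate 1 (edgeR adjusted p = 0.176). Both genes were at 0 in ILCP replicate 2, as in most ILC2P libraries. Cmas, which activates sialic acid, was at 267, 182 and 16.8 CPM in ILCP and had 1 count in ILC2P, with no overlap and a log2 fold change of -5.58 (edgeR adjusted p = 0.0127), or -4.99 without replicate 1 (edgeR adjusted p = 0.155). Trafd1, at 44.4, 24.2 and 135 CPM, and Smpd4, at 34.6, 351 and 25.2 CPM, also had counts in every ILCP library and none in ILC2P. The ILCP mean of Trafd1 was 11.9 times the floor, 14.0 times without replicate 1 (edgeR adjusted p = 0.104) and 6.05 times without replicate 3 (0.174). That of Smpd4 was 24.1 times the floor, 33.2 times without replicate 1 (edgeR adjusted p = 0.0982) and 5.27 times without replicate 2 (0.235). Genes led by ILCP replicate 1 included Grn (119, 0 and 16.8 CPM), Mpeg1 (143, 0 and 16.8 CPM), Tsc22d1 (143, 0 and 50.5 CPM) and Lrrc8d (222, 0 and 25.2 CPM), each at 0 in ILC2P and over an adjusted p of 0.05 in edgeR without that library. R3hdm2 was at 59.3, 0 and 160 CPM in ILCP and at 0 in ILC2P. Its ILCP mean was 12.9 times the floor, 14.1 times without replicate 1 (edgeR adjusted p = 0.151) and 5.22 times without replicate 3 (0.0656).

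The 6 genes of the 53 that were also called without ILCP replicate 1 were Myb, Rab29, Ccdc34, Tbc1d10b, Zfp938 and 5730408K05Rik, the last 4 named after their values were seen. Ccdc34 was at 79.0, 957 and 135 CPM in ILCP and at 0 to 43.2 CPM (median 0) in ILC2P, with no overlap. Tbc1d10b was at 44.4, 1115 and 42.1 CPM in ILCP and at 0 to 74.1 CPM in ILC2P. Zfp938 was at 19.8, 1030 and 0 CPM and 5730408K05Rik at 4.94, 509 and 50.5 CPM in ILCP. Apart from Myb, these genes were highest in ILCP replicate 2, and the edgeR adjusted p without that library was 0.166 for Ccdc34, 0.879 for Tbc1d10b, 0.555 for Zfp938 and 0.778 for 5730408K05Rik.

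No gene was called higher in ILC2P by the edgeR fit reported here, against 15 by DESeq2 and 9 by edgeR without a filter on low counts. Birc2, an inhibitor of cell death, was 1 of the 2 genes with all ILC2P libraries above all ILCP libraries, at 34.5 to 351 CPM (median 108) against 19.8, 12.1 and 33.7 CPM. It did not pass the test (log2 fold change 2.89, edgeR adjusted p = 0.241), and the other, the gene model Gm9199, did not either (4.07, edgeR adjusted p = 0.293). Both genes were named after their values were seen.

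**Figure D5:**
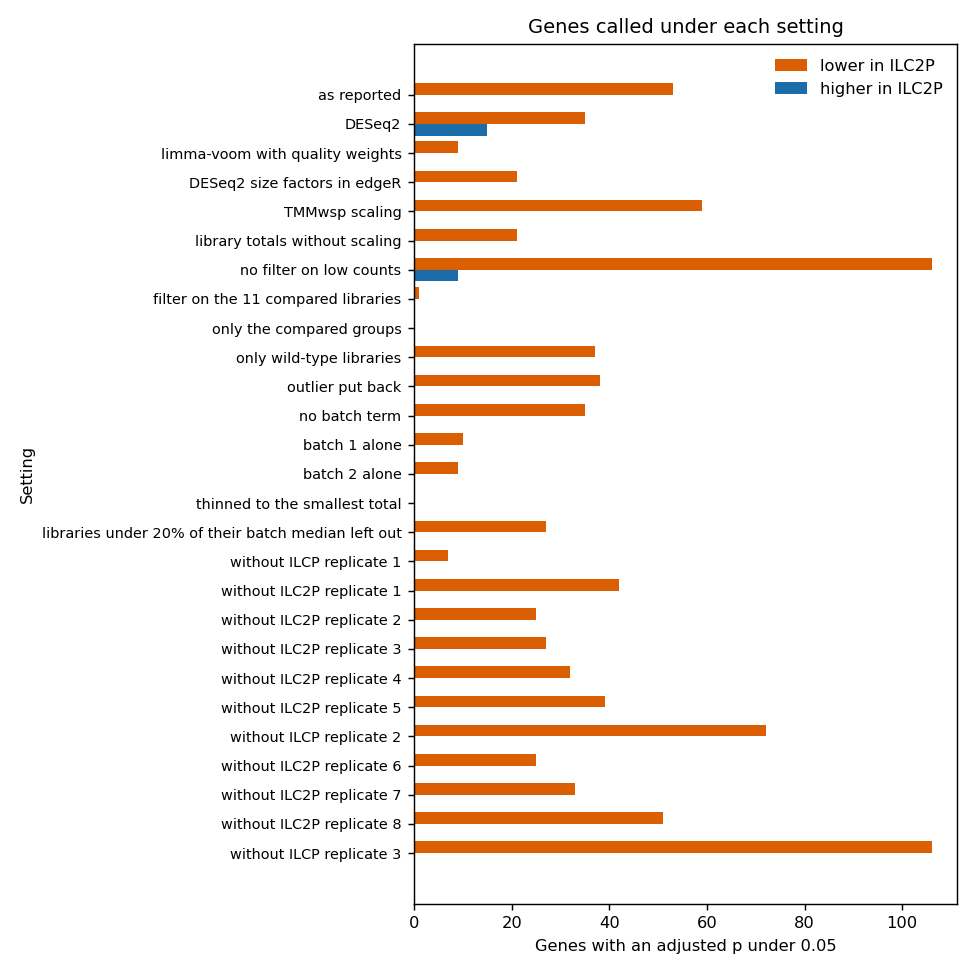
Number of genes with an adjusted p under 0.05, lower (orange) and higher (blue) in ILC2P, as reported and under each alternative setting. The count of lower genes runs from 0 to 106, and higher genes appear with DESeq2 (15) and without a filter (9).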

How the data were processed

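Polyadenylated RNA from sorted bone marrow cells was measured by CEL-seq. The authors deposited raw read counts under Entrez gene identifiers, with batches in separate tables. By the submitters' processing notes, the tools were CASAVA 1.8.2, featureCounts, limma and edgeR (3.22.0 and 3.8.2), with build mm10. For the aligner, the sources used here give no name. Molecular identifiers are not mentioned. Counting intervals leave out all other error, and multiples of the floor also take the ILCP mean as exact. RefSeq on GRCm38.p6 named 25275 of 27179 identifiers (92.99%). No value column lacked a sample (0).

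Groups came from the labels. The model held 47 libraries of 70 samples, with 4 technical repeats summed into the library they repeat. These were the wild-type, Tcf7 knockout and Id2 knockout libraries, apart from an outlier named by the submitters. Spike-in controls and Nfil libraries also stayed out. edgeR 4.0.16 in R 4.3.3 used filterByExpr with minimums of 10 and 15 (total), scaled by TMM, and fitted group means plus batch by robust quasi-likelihood (35 residual degrees of freedom, biological coefficient of variation 109.7%). Adjusted p-values are Benjamini-Hochberg over 10972 genes, called under 0.05. The filter was run by group over all libraries of the model, where the smallest group held 1 library. A gene high enough in 1 library of any group therefore passed, and a tested gene can have no count in the 11 compared libraries. Such genes stay in the numbers of tested genes and in the list medians. Library totals are given in the report. The 31 replicate pairs differed by 6.52 to 22.8 times sampling noise, so none was counted as a duplicate.

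Members and gene lists were chosen with earlier results of these data known. Named genes were the markers, the regulators, up to 4 called members per list, by adjusted p, or, where none was called, 2 with the highest mean, and up to 15 called genes per direction with the largest fold change, a mean of 20 CPM or more where higher, and 1 sign across batches. Others were named after their values were seen: Il2ra, Il17rb, Hpgds, Itga4 and those the report marks. Some genes that this rule selects are left out of the text and figures but stayed in every test and count. Alternatives were DESeq2 1.42.0, limma-voom (limma 3.58.1), other scalings, filters, samples and batch terms, thinning, and leaving out each library. On simulated data for this comparison (9440 genes), 37 of 50 genes raised 64-fold and 28 of 50 lowered 64-fold were recovered. At 8-fold these were 12 and 9 of 50, and 9 of 9240 unchanged genes were called. Each gene started from the same mean in every group. Counts were drawn independently for each library, so none was made to stand apart as ILCP replicate 1 did. The rate of false calls in the real data was not measured. Changed genes were drawn from those with a mean over 20 CPM across the model, so recovery of sparser genes was not measured.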

Additional observations from a re-analysis of the deposited data

Results flagged for a closer look

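In 27 of 103 groups of 8 ILC2P values, the highest library lay farther from its nearest neighbour than Dixon's 95% limit allows. Chance flags about 5% of groups of normally distributed values, a rate that does not apply to sparse counts: in 7 of the 27, only 1 ILC2P library had any count. Replicate 1 stood apart with 34.5 CPM for Zbtb16, 34.5 CPM for Myb, 483 CPM for Tubb5, 34.5 CPM for Ifi27l2a, 1761 CPM for Atp5a1 and 207 CPM for Hba-a1. Replicate 2 stood apart with 12.5 CPM for Nfil3, 113 CPM for Itgb1, 439 CPM for Hmgcs1, 702 CPM for Eif2s3y and 12.5 CPM for Cmas. Replicate 3 stood apart with 880 CPM for Ikzf3 and 2320 CPM for Cxcr6. Replicate 4 stood apart with 547 CPM for Mcl1. Replicate 5 stood apart with 1897 CPM for Klrg1, 133 CPM for Lef1, 2193 CPM for Ramp1, 889 CPM for Pim1, 459 CPM for Hes1 and 2845 CPM for Atp5mpl. Replicate 6 stood apart with 47.7 CPM for Rora, 95.4 CPM for Il18r1, 35.8 CPM for Klrd1 and 1097 CPM for S100a8. Replicate 7 stood apart with 37.1 CPM for Cpa3. Replicate 8 stood apart with 831 CPM for Maf. Values of 34.5 CPM in replicate 1, and of 12.5 CPM in replicate 2, are 1 count each.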

How the results depend on the processing

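The count of genes lower in ILC2P, 53 as reported, was 35 with DESeq2, 9 with limma-voom, 21 with DESeq2 size factors, 21 with unscaled totals, 106 without a filter, 1 (Vim) with a filter on the 11 libraries, 0 when only these groups were fitted, 35 without a batch term, 10 in batch 1 alone, 9 in batch 2 alone, 0 after thinning to 19322 counts and 27 without the 2 libraries under 20% of their batch median. It was 59 with TMMwsp, 37 with wild-type libraries only and 38 with the outlier put back. Leaving out 1 library gave 7 to 106, with the lowest count without ILCP replicate 1 and the highest without ILCP replicate 3, 25 without ILC2P replicate 2 or 6, 27 without 3, 32 without 4 and 33 without 7. The count higher was 15 with DESeq2 and 9 without a filter (30.0% and 7.83% of calls), and 0 under every other setting run. With only these groups 64 genes, and after thinning 11 genes, had an unadjusted p under 0.05. Thinning left 437 genes to test, and the filter on 11 libraries left 2377. Of the 53 called genes, 4 were tested with that filter, 4 with only these groups and 1 after thinning. Of these tested genes, 1 of 4 was called with that filter, 0 of 4 with only these groups and 0 of 1 after thinning. The others were not tested there, so their absence is not a failed test. Other causes were not tested. The median log2 fold change over all genes was -0.21, and 0.04 to 0.06 with DESeq2, limma-voom, DESeq2 size factors in edgeR or unscaled totals. Of 27 named genes called, 25 lost the call without ILCP replicate 1; 4 of these kept a fold within 1.5 times, and 6 had no count in the other ILCP libraries. Of all 53, 8 had a positive fitted value without it, 7 of them with no ILCP count left, where the sign shows no reversal. The named ones among these 7 were Klrd1, Cd7 and Hba-a1, and Klrd1 also in batch 1 alone (3.83), where ILCP held no count. Over the fits leaving out 1 library they ran from -8.55 to 2.87 for Klrd1, -8.56 to 0.17 for Cd7 and -10.38 to 3.88 for Hba-a1. No paired analysis was possible because replicate numbers were given in accession order and only name libraries.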
